A study of Rattus norvegicus with 16 samples.

Results

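Gluconeogenesis was followed through 4 genes in rat liver: Pc, Pck1, Fbp1 and G6pc1. They were found by gene symbol in the annotation of the array platform, which gave 6 of the 8740 probe sets. Pck1 and Fbp1 had 1 probe set each and Pc had 2. The other 2 probe sets carry the symbols Psme3, Aoc3 and G6pc1 together, so their signal is not attributed to any of these 3 genes and G6pc1 has no value of its own. Both are described as shared probe sets.

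The livers came from male F344 rats, singly housed, aged 6 weeks when they arrived and fed AIN 76A chow freely, with no fast named in the labels. The 4 groups of 4 rats were given by gavage either sucrose vehicle or 1 of 3 dithiolethiones, sulphur ring compounds tested as chemopreventive agents. The compounds were the unsubstituted ring D3T, TBD, which carries a tert-butyl group, and oltipraz (OLT), which carries both methyl and pyrazinyl groups, each at 0.3 mmol/kg. There were 3 doses, every other day within 5 days, and the liver was removed 24 h later. The titles of the control samples call them untreated, whereas the protocol gives them vehicle. Each rat had 1 array of its own. Whole liver was used, so fewer cells of a type and less RNA per cell cannot be told apart.

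Gluconeogenesis makes glucose from lactate, glycerol and amino acids, and the liver is its main site during fasting. Pyruvate carboxylase (Pc), a biotin enzyme of mitochondria, turns pyruvate into oxaloacetate. Cytosolic phosphoenolpyruvate carboxykinase (Pck1) turns oxaloacetate into phosphoenolpyruvate. Fructose-1,6-bisphosphatase (Fbp1) removes a phosphate further along, and glucose-6-phosphatase (G6pc1) frees glucose at the end. Glucagon, through cAMP, and glucocorticoids are known to raise Pck1 and G6pc1 transcription, and insulin is known to lower it.

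In these livers the brighter Pc probe set fell to 34.4% of the vehicle level with OLT and to 33.1% with TBD. The dimmer Pc probe set fell to 43.3% with OLT and to 40.6% with TBD. Pck1 fell with TBD to 50.5% of vehicle (log2 difference -0.99 ± 0.13 SE, n = 4 per group), and with D3T it stayed within 0.28 of vehicle on the log2 scale by the 95% interval. Fbp1 rose 1.30-fold with D3T, a call lost after centring of array medians and against a minimum fold of 1.2.

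The promoters of Pck1 and Fbp1 are shown because these genes had an entry in the promoter table and Pc did not. Each sequence covers 250 bases before to 50 bases after the annotated start, from RefSeq on build GRCr8, at chr3:182348322-182348621 for Pck1 and chr17:2213457-2213756 for Fbp1, both on the plus strand. Capitals mark matches to the searched motifs. Of the 3 genes with values, 2 had an entry in the promoter table.
Pck1: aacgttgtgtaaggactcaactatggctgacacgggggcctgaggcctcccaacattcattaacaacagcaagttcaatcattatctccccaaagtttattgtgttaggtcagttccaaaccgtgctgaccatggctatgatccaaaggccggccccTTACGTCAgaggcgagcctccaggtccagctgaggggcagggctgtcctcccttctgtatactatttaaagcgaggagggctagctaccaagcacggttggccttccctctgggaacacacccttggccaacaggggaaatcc
Fbp1: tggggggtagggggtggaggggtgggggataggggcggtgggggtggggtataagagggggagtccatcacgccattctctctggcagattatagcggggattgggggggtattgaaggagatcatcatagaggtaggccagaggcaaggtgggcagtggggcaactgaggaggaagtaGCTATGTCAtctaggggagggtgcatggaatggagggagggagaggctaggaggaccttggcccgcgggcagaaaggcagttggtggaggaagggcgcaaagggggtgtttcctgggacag
Both strands were searched for 10 motifs. The Pck1 promoter held the variant cAMP response element TTACGTCA on the plus strand at bases -93 to -86 before the start. It is found in 0.807% of 33469 rat promoters of the same length. The motif was listed before the search, with cAMP control of Pck1 already known, so this share is not a test of the match. The shorter cAMP motif TGACG, found in 21.2% of promoters, lay inside it on the minus strand at -90 to -86. The Fbp1 promoter held 1 match to the antioxidant response motif TGACNNNGC, on the minus strand at -71 to -63, a motif found in 12.1% of promoters. The other motifs searched had no match in either window: TGACGTCA (1.83% of promoters), the forkhead motif GTAAACA (3.78%), the insulin response motif TGTTTTG (6.28%), the E box CACGTG (6.42%), the HNF4-like motif CAAAGTCCA (0.391%), the C/EBP motif TTGCNNAA (10.6%) and TATAAA (14.2%). A match describes letters and does not show that a factor bound there.

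The first question was how each compound changed the enzymes against vehicle. Testing was limited to probe sets that 4 or more of the 16 arrays placed higher than their 40th percentile. Of the 6 probe sets, 5 were tested. Values are log2 expression values, and a call means a Benjamini-Hochberg adjusted p under 0.05 in a limma fit over 5323 probe sets. With D3T, 2 of the 5 were called, 1 lower and 1 higher, against 18.4% of all tested probe sets. With OLT 2 were called, both lower, against 11.3%, and with TBD 3 were called, all lower, against 13.0%. The groups did not overlap at 2, 2 and 4 of the 5 with D3T, OLT and TBD, against 24.9%, 14.7% and 14.3% of all tested probe sets. The 3 comparisons share the 4 vehicle arrays and 2 of the 5 probe sets measure Pc, so these counts are not independent. The plot of all arrays shows each probe set in turn.

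**Figure D1:**
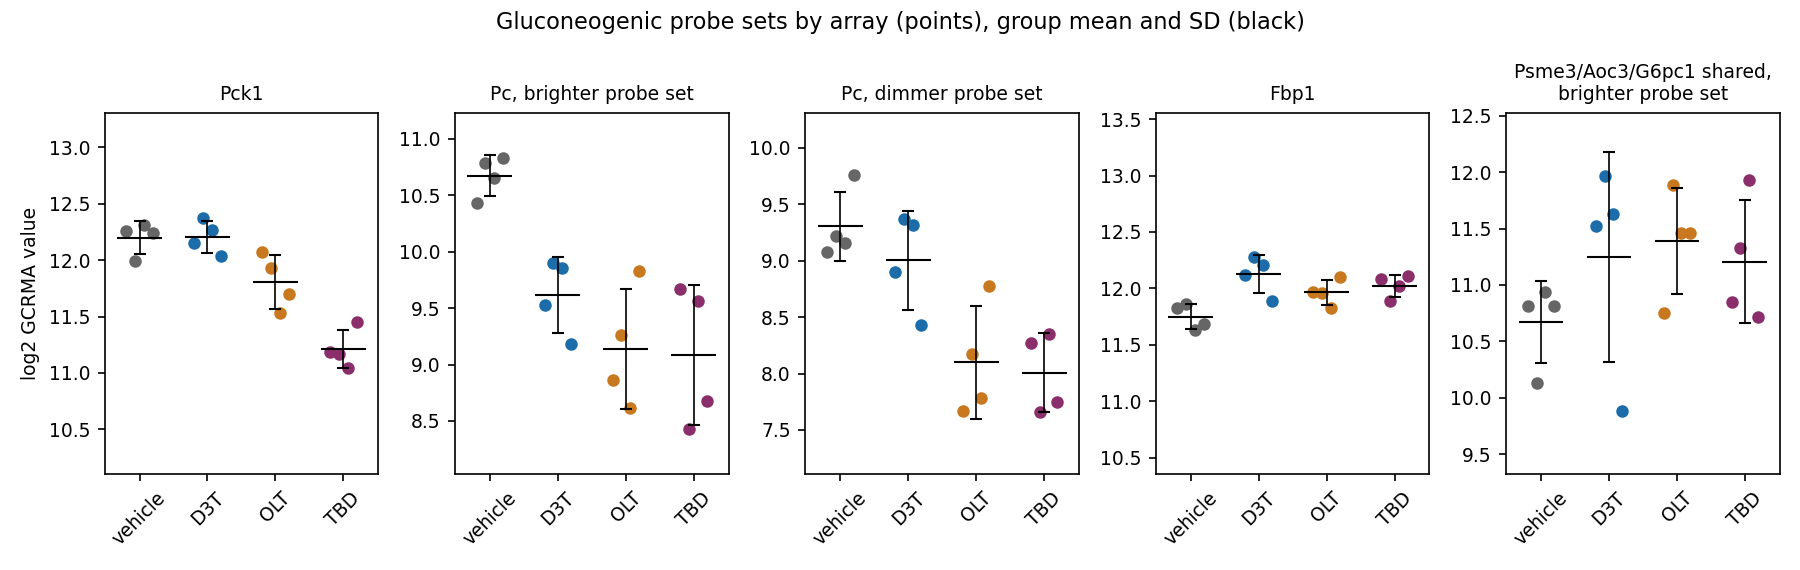
Log2 expression value of each probe set (vertical axes, each spanning the same log2 range) for the 16 arrays in 4 groups, with replicates 1 to 4 from left to right as points and the group mean ± SD in black. Pc lay below every vehicle array in all compound arrays at its brighter probe set, and Pck1 was lowest in TBD, between 11.04 and 11.45.

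Pc was measured by 2 probe sets designed from the same sequence entry. The brighter read 10.43, 10.79, 10.65 and 10.83 on vehicle replicates 1 to 4. It read 9.53, 9.90, 9.86 and 9.18 with D3T, and 8.86, 9.26, 8.61 and 9.83 with OLT. With TBD it read 9.67, 8.43, 9.56 and 8.68. All 12 compound arrays lay below all 4 vehicle arrays. Vehicle was the tightest group (SD 0.18) and TBD the widest (SD 0.62), with replicates 1 and 3 about a log2 unit above replicates 2 and 4.

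From a vehicle mean of 10.68 ± 0.18 (SD, n = 4), Pc fell to 9.08 ± 0.62 with TBD. The log2 difference was -1.59 ± 0.30 (SE, adjusted p = 0.00258, limma), which is 33.1% of the vehicle level. With OLT it fell to 9.14 ± 0.53 (log2 difference -1.54 ± 0.30, adjusted p = 0.00396), which is 34.4% of vehicle. With D3T it fell to 9.62 ± 0.33 (log2 difference -1.06 ± 0.30, adjusted p = 0.0223), which is 48.0% of vehicle. By size the OLT and TBD differences ranked 117th and 135th of 5323.

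The dimmer probe set read 9.08, 9.22, 9.16 and 9.76 in vehicle. With OLT it read 7.67, 8.17, 7.78 and 8.78, and with TBD 8.27, 7.66, 8.35 and 7.75. D3T arrays read 8.90, 9.37, 9.32 and 8.43, of which 2 lay inside the vehicle range and 2 below it. All OLT and TBD arrays lay below all vehicle arrays, while D3T overlapped vehicle. It fell with OLT (log2 difference -1.21 ± 0.27, adjusted p = 0.00938) and with TBD (log2 difference -1.30 ± 0.27, adjusted p = 0.00514). With D3T the difference was -0.30 (95% interval -0.87 to 0.27, adjusted p = 0.495).

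The probe sets thus gave the same call for OLT and TBD and not for D3T. Averaged, they fell short of a call with D3T (-0.68, adjusted p = 0.102). The D3T call at the brighter probe set was also lost without vehicle replicate 2 (-1.02, adjusted p = 0.0621), vehicle replicate 4 (-1.01, 0.0567), D3T replicate 1 (-1.03, 0.0567) or D3T replicate 4 (-0.91, 0.0716), and when tested against a minimum fold of 1.2 with limma's treat (adjusted p = 0.0856). The OLT and TBD calls held under every alternative run, with differences of -1.77 to -1.36 and -1.79 to -1.38.

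Pck1 read 12.26, 11.99, 12.31 and 12.24 on vehicle replicates 1 to 4. It read 12.15, 12.37, 12.27 and 12.04 with D3T, and 12.07, 11.93, 11.53 and 11.70 with OLT. With TBD it read 11.19, 11.17, 11.04 and 11.45. D3T and vehicle covered the same range, OLT reached into the lower end of that range on 1 array, and TBD lay below all other arrays.

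Pck1 fell from 12.20 ± 0.14 in vehicle to 11.21 ± 0.17 with TBD (SD, n = 4), a 1.98-fold fall (log2 difference -0.99 ± 0.13, adjusted p = 0.000217). This call held under every alternative run, with differences of -1.10 to -0.93. With OLT the mean was 11.81 ± 0.24 and the difference -0.39 (95% interval -0.66 to -0.12, adjusted p = 0.0597), which did not pass. It passed without vehicle replicate 2 (-0.46, adjusted p = 0.0452) or without OLT replicate 1 (-0.48, 0.028). With D3T the mean was 12.21 ± 0.14 and the difference 0.01 (-0.26 to 0.28, adjusted p = 0.977), and its sign turned under several alternatives (-0.09 to 0.06).

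Fbp1 read 11.83, 11.86, 11.63 and 11.68 in vehicle and 12.12, 12.28, 12.21 and 11.89 with D3T. It read 11.97, 11.96, 11.83 and 12.10 with OLT, and 12.08, 11.89, 12.02 and 12.11 with TBD. All D3T and TBD arrays lay above all vehicle arrays, by a narrow margin on their lowest arrays, and OLT overlapped vehicle on 1 array. Its spread within groups was small, with SDs of 0.10 to 0.17.

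Fbp1 rose from 11.75 ± 0.11 to 12.13 ± 0.17 with D3T (SD, n = 4), a log2 difference of 0.37 ± 0.10 (adjusted p = 0.014, 1.30-fold). The call was lost when array medians were centred (0.32, adjusted p = 0.0697) and against a minimum fold of 1.2 (adjusted p = 0.561). With TBD it differed by 0.27 (95% interval 0.07 to 0.48, adjusted p = 0.0786) and with OLT by 0.21 (0.01 to 0.42, adjusted p = 0.198), and neither passed.

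The brighter of the probe sets shared by Psme3, Aoc3 and G6pc1 read 10.81, 10.13, 10.94 and 10.81 in vehicle. It read 11.52, 11.97, 11.63 and 9.88 with D3T, 10.75, 11.89, 11.46 and 11.46 with OLT, and 10.85, 11.33, 11.93 and 10.72 with TBD. Each compound group overlapped vehicle, and D3T replicate 4 was the lowest of all 16 arrays. The differences were 0.58 with D3T (95% interval -0.28 to 1.44), 0.72 with OLT (-0.14 to 1.58) and 0.54 with TBD (-0.32 to 1.40), with adjusted p of 0.362, 0.326 and 0.512. Without D3T replicate 4 the D3T difference was 1.03 and passed (adjusted p = 0.0402). The intervals are wide enough to hold both no difference and a rise of more than 2-fold. The dimmer shared probe set lay between 2.71 and 3.01, below the 40th percentile of every array, and was not tested.

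The next question was whether the compounds, given at the same dose and time, differed from each other. Of the 5 tested probe sets, 0 were called between D3T and OLT, 1 between D3T and TBD and 0 between TBD and OLT, against 1.07%, 0.658% and 0.0564% of all tested probe sets. At an unadjusted p under 0.05 in the same limma fit, Pck1 and the dimmer Pc probe set differed between D3T and OLT (unadjusted p = 0.00663 and 0.00422), the dimmer Pc probe set between D3T and TBD (unadjusted p = 0.0021), and Pck1 between TBD and OLT (unadjusted p = 0.000305). The groups did not overlap at 0, 2 and 1 of the 5, against 7.53%, 9.21% and 1.05%. Each pair is drawn in the plot of differences.

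**Figure D2:**
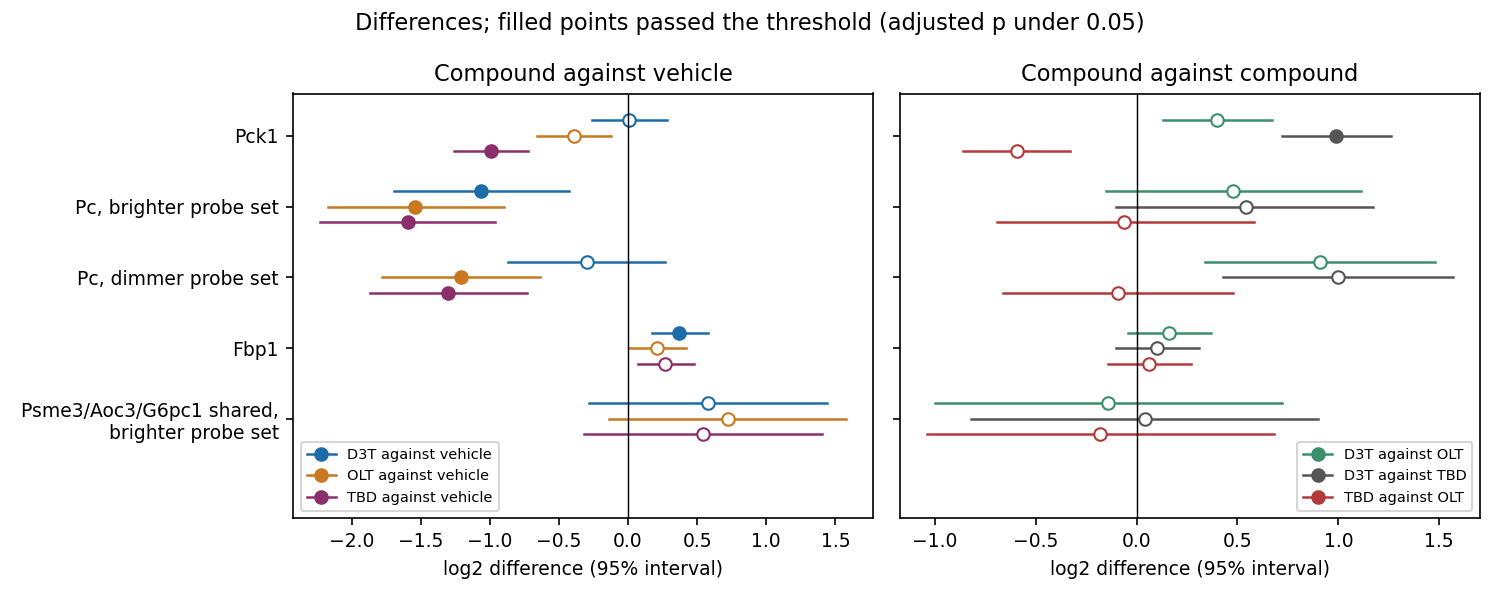
Log2 differences with 95% intervals (horizontal axes) for the 5 tested probe sets, each compound against vehicle on the left and the compounds against each other on the right, with filled points for adjusted p under 0.05 and open points for the rest. Between compounds the filled point is Pck1 in D3T against TBD, at 0.99.

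Pck1 was 1.99-fold higher with D3T than with TBD (log2 difference 0.99 ± 0.13, adjusted p = 0.00162). It ranked 101st of 5323 by size, and the call held under every alternative run (0.93 to 1.07). The labels give TBD a tert-butyl group that D3T lacks, and whether that group plays a part in the difference was not tested. Pck1 also read lower with TBD than with OLT on every array, with 11.45 the highest TBD and 11.53 the lowest OLT value. That difference of -0.59 (95% interval -0.86 to -0.33) did not pass over all probe sets (adjusted p = 0.325). D3T and OLT differed by 0.40 (0.13 to 0.67, adjusted p = 0.177).

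For Pc the compounds were not separated at the brighter probe set. D3T lay above OLT by 0.48 (95% interval -0.15 to 1.11, adjusted p = 0.529) and above TBD by 0.54 (-0.10 to 1.17, adjusted p = 0.566). TBD and OLT differed by -0.06 (-0.69 to 0.58, adjusted p = 1). At the dimmer probe set D3T lay above OLT by 0.91 (0.34 to 1.48, adjusted p = 0.136) and above TBD by 1.00 (0.43 to 1.57, adjusted p = 0.134), with no overlap between D3T and TBD arrays. Fbp1 differed by at most 0.16 between compounds, and its intervals lay between -0.14 and 0.37. For the shared probe set the intervals ran from -1.04 to 0.90 and included both signs in each pair.

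**Figure D3:**
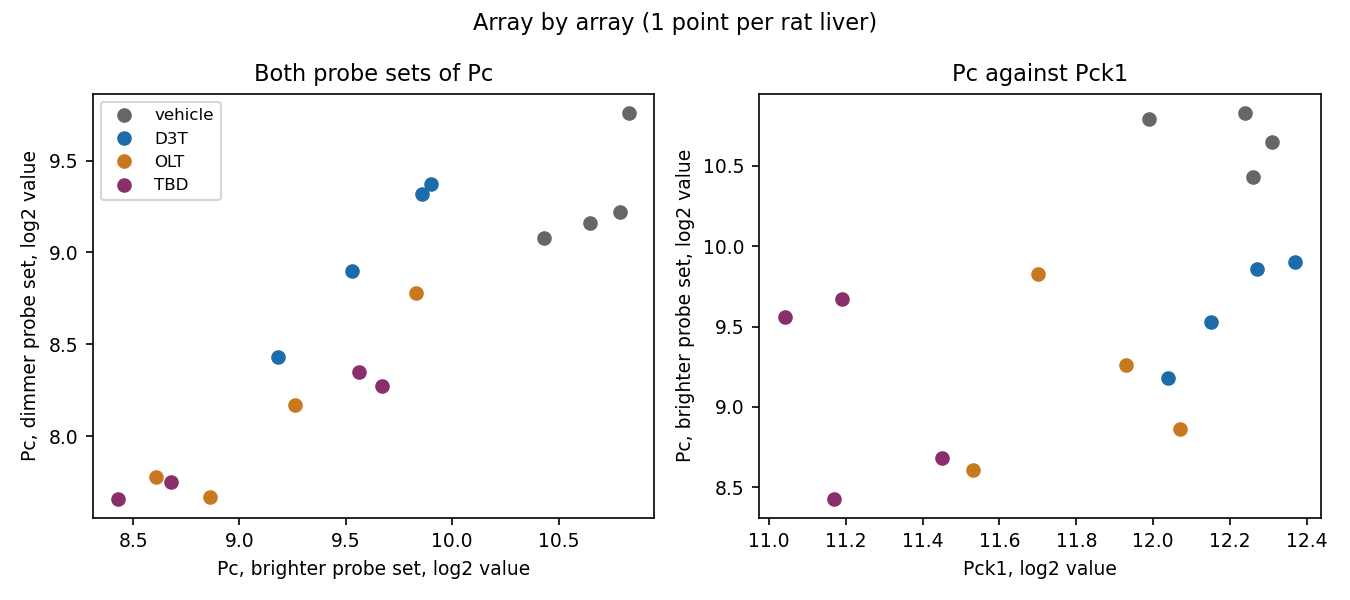
Log2 values of 16 arrays, 1 point per rat liver coloured by group, for the dimmer (vertical) against the brighter (horizontal) Pc probe set on the left and for Pc (vertical) against Pck1 (horizontal) on the right. D3T arrays lie with vehicle along the Pck1 axis and below vehicle along the Pc axis, and TBD arrays lie low on both.

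The arrays were also compared across genes, as a description over 16 arrays with no test. The 2 Pc probe sets went together (Pearson r = 0.90, Spearman rho = 0.90), also in their deviations from the group means (r = 0.90). Pck1 and Pc had r = 0.55 (rho = 0.60) over all arrays and r = -0.04 in the deviations, so their shared pattern lay between groups and not between rats of a group. Pc and Fbp1 had r = -0.30 (rho = -0.17) over all arrays and r = 0.59 in the deviations. The points share their arrays, and so any error of an array's scaling.

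Among 3103 other genes, the 3 with the highest r over the 16 arrays were named for each enzyme. For Pc these were the protease Ctsh (r = 0.92, rho = 0.89), the acyl-CoA synthetase Acsl1 (0.92, 0.88) and Pfkfb1 (0.90, 0.89). Their deviations from group means also went with those of Pc (r = 0.81, 0.73 and 0.65). For Pck1 they were the steroid dehydrogenase Hsd17b2 (r = 0.82, rho = 0.84), the reductase Ptgr1 (0.80, 0.78) and the class I histocompatibility gene RT1-A3 (0.80, 0.75), with r of 0.02, -0.01 and 0.15 in the deviations. Hsd17b2 had group means of 12.20, 11.90, 11.45 and 10.13 in vehicle, D3T, OLT and TBD, the same order as Pck1 except for vehicle and D3T. For Fbp1 they were the sulfurtransferase Mpst (r = 0.87, rho = 0.93), Ddt (0.82, 0.82) and Bsg (0.81, 0.82), with r of 0.72, 0.44 and 0.56 in the deviations. Without the 2 arrays farthest from the median of the enzyme, r was 0.73 to 0.94 for these 9 genes.

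The other genes of glucose metabolism were taken as lists, with 1 probe set per gene, the tested one with the highest mean. Over all 3104 genes tested this way, 4.61% were higher and 13.1% lower with D3T, 2.61% and 8.92% with OLT, and 2.80% and 10.0% with TBD. Lower calls outnumbered higher ones under the deposited scaling. Over probe sets, 33.5%, 30.0% and 27.3% of calls were higher with D3T, OLT and TBD, against 52.9%, 46.5% and 44.9% after quantile normalization. The median difference over all genes was 0.03, -0.03 and -0.02.

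Of 15 tested genes for the steps shared with glycolysis and for the shuttles, 3 rose and 2 fell with D3T, 0 rose and 3 fell with OLT, and 0 rose and 1 fell with TBD. The list medians were 0.11, -0.02 and -0.04. The lower count was 1 with D3T without any D3T array or vehicle replicates 2, 3 or 4, and 1 with OLT without OLT replicates 2 or 3. With TBD it was 2 without vehicle replicate 3, and the higher count was 1 without TBD replicate 1. Got1, the cytosolic aspartate aminotransferase of the oxaloacetate shuttle, fell with OLT (log2 difference -3.38 ± 0.57, adjusted p = 0.0018) and with TBD (log2 difference -2.50 ± 0.57, adjusted p = 0.00985). With TBD this was lost with only the 8 arrays compared (adjusted p = 0.0771). Its D3T call (-1.82, adjusted p = 0.0389) was lost without any of the D3T replicates or vehicle replicates 2, 3 and 4 (-1.92 to -1.47, up to adjusted p = 0.137), and with 4 other alternatives. Cytosolic malate dehydrogenase Mdh1 (0.92 ± 0.16, adjusted p = 0.00137) and glycerol-3-phosphate dehydrogenase Gpd1 (1.34 ± 0.31, adjusted p = 0.00832) rose with D3T. The glucose-6-phosphate transporter Slc37a4, the partner of G6pc1 in the endoplasmic reticulum, differed by -0.01, -0.33 and -0.23 with D3T, OLT and TBD and did not pass (adjusted p = 0.972, 0.0896 and 0.255). It passed with OLT without OLT replicate 1 (-0.44, adjusted p = 0.0161), and the sign with D3T was not stable.

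Of 10 tested genes of glycolysis and pyruvate disposal, 1 rose with each compound and 3, 2 and 2 fell with D3T, OLT and TBD, with medians of -0.16, -0.18 and 0.09. The higher count was 3 with D3T without vehicle replicate 1, 2 without D3T replicate 2, and 3 with TBD without TBD replicate 4. The lower count was 1 with OLT once vehicle replicate 2, 3 or 4, or OLT replicate 1, 2 or 3, was removed, and 1 with TBD without vehicle replicates 2 or 4 or TBD replicates 1, 2 or 4. The gene that rose was Gckr, a regulatory protein of liver glucose metabolism. It rose by 1.15 ± 0.23 with D3T, 1.06 ± 0.23 with OLT and 1.15 ± 0.23 with TBD (adjusted p = 0.00304, 0.00771 and 0.00404), and these calls held under every alternative run. Pfkfb1, the liver enzyme that makes and breaks down fructose-2,6-bisphosphate, fell, with log2 differences of -1.63, -2.10 and -2.26 (each ± 0.42, adjusted p = 0.0145, 0.00515 and 0.00269). Averaging its 3 probe sets ended the D3T call (-1.06, adjusted p = 0.0631). Pdp2, a phosphatase that activates pyruvate dehydrogenase, fell with D3T (log2 difference -1.52 ± 0.36, adjusted p = 0.00908), and it differed by -0.69 with OLT (adjusted p = 0.283) and -0.43 with TBD (adjusted p = 0.587). Without vehicle replicate 2 these were -0.29 and -0.04, and array weights called both (adjusted p = 0.00501 and 0.0211). Pyruvate kinase Pklr did not pass, with differences of 0.76, 0.10 and 0.18 (adjusted p = 0.485, 0.989 and 1), and its sign with OLT and TBD turned with single arrays left out. Ppargc1a, a coactivator of gluconeogenic genes, had no probe set with 1 symbol. The glucose transporter Slc2a2, which carries glucose out of hepatocytes, fell from 11.70 ± 0.17 to 10.61 ± 0.18, 10.51 ± 0.32 and 10.18 ± 0.75 (SD, n = 4). The differences were -1.09, -1.19 and -1.52 (each ± 0.28, adjusted p = 0.0139, 0.0129 and 0.00246). Against a minimum fold of 1.2 the D3T and OLT calls of Slc2a2 were lost (adjusted p = 0.0591 and 0.0529).

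Of 6 tested glycogen genes, 0 rose with any compound and 1, 2 and 2 fell, with medians of -0.20, -0.14 and -0.26. The D3T count was 0 without vehicle replicates 2 or 4 and 2 without vehicle replicate 1 or D3T replicate 3, and the OLT count was 1 without vehicle replicate 4. The phosphorylase kinase subunit Phkg2 fell, with log2 differences of -0.37, -0.41 and -0.46 (each ± 0.10, adjusted p = 0.0159, 0.0151 and 0.00589). After quantile normalization Phkg2 lost its D3T (-0.16, adjusted p = 0.129) and OLT (-0.20, adjusted p = 0.102) calls, and against a minimum fold of 1.2 it lost all 3. Liver glycogen synthase Gys2 fell with TBD (log2 difference -1.25 ± 0.24, adjusted p = 0.00339). With D3T it differed by -0.72 (95% interval -1.24 to -0.20, limma adjusted p = 0.0515) and passed in 5 of 19 alternatives. With OLT it fell (log2 difference -1.04, adjusted p = 0.0122), a call lost after centring (adjusted p = 0.055), against a minimum fold of 1.2 (0.0601) and with only the 8 arrays compared (0.0519). Of 3 tested genes of biotin enzymes and biotin handling, 1, 0 and 1 fell and 0 rose, with medians of -0.15, -0.10 and -0.19. The gene was biotinidase Btd, which recycles the cofactor of Pc. Btd fell with D3T (log2 difference -3.65 ± 0.58, adjusted p = 0.000689) and with TBD (log2 difference -2.23 ± 0.58, adjusted p = 0.0201). With D3T it read 3.45 to 5.54, and 1 of 4 arrays lay below the array median, so the size of that fall is uncertain. The TBD call was lost without vehicle replicate 2 (-1.90), vehicle replicate 4 (-2.14) or TBD replicate 2 (-1.92) and after centring (-2.21, adjusted p = 0.0581). With OLT Btd differed by -1.61 (95% interval -2.85 to -0.37, adjusted p = 0.092) and passed without OLT replicate 4 (-2.01, adjusted p = 0.0474).

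**Figure D4:**
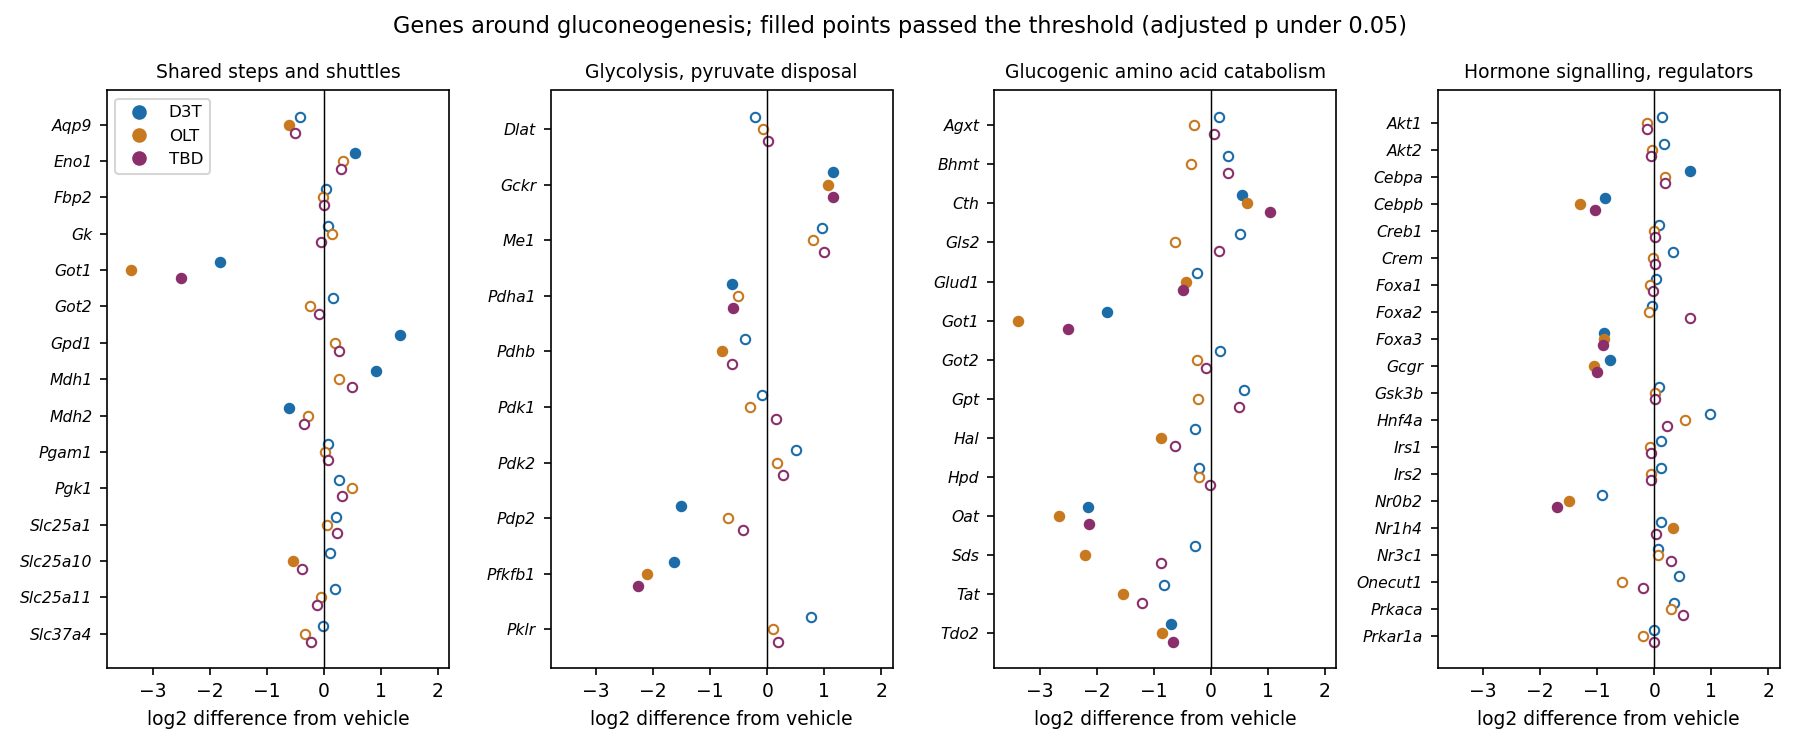
Log2 difference from vehicle (horizontal axes) of every tested gene in 4 lists around gluconeogenesis, coloured by compound, with filled points for adjusted p under 0.05 and open points for the rest. Gckr lies near 1.1 with all compounds, while Got1, Oat and Pfkfb1 lie at -1.63 or lower with all compounds.

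Amino acids feed gluconeogenesis through pyruvate and the citric acid cycle. Of 14 tested enzymes of this kind, 1 rose with each compound and 3, 7 and 4 fell with D3T, OLT and TBD, with medians of -0.22, -0.54 and -0.28. The OLT count of lower genes was 5 to 7 with any 1 array left out. The count of higher genes with D3T was 3 after quantile normalization and 0 without vehicle or D3T replicates 1, 2 or 3, and 0 with OLT once vehicle replicate 1 or 3, or OLT replicate 2 or 3, was removed. With TBD it was 2 after quantile normalization. Ornithine aminotransferase Oat fell, with log2 differences of -2.16, -2.67 and -2.13 (each ± 0.49, adjusted p = 0.00675, 0.00279 and 0.01), under every alternative run. Serine dehydratase Sds, which makes pyruvate from serine, fell with OLT from 11.55 ± 0.16 to 9.33 ± 0.88 (SD, n = 4) (log2 difference -2.21 ± 0.44, adjusted p = 0.00473). With TBD it differed by -0.87 (-1.81 to 0.06, adjusted p = 0.244; -0.42 without TBD replicate 4, and called with array weights at -0.92, adjusted p = 0.0207) and with D3T it differed by -0.28 (-1.22 to 0.65, adjusted p = 0.707). Got1 belongs to this list as well.

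Of 20 tested receptors, signalling proteins and transcription factors known to act on gluconeogenic genes, 1, 1 and 0 rose and 3, 4 and 4 fell with D3T, OLT and TBD, with medians of 0.10, -0.06 and -0.02. The OLT count of lower genes was 2 without vehicle replicate 4, and also after quantile normalization or centring. The count of higher genes was 0 with OLT once vehicle replicate 3 or 4, or OLT replicate 4, was removed, and 1 with TBD without TBD replicate 3. With D3T it was 4 after quantile normalization. The glucagon receptor Gcgr fell, with log2 differences of -0.78, -1.05 and -1.01 (each ± 0.17, adjusted p = 0.00661, 0.00178 and 0.0016). The factor Cebpb, which binds the Pck1 promoter in textbook accounts, fell, with log2 differences of -0.87, -1.31 and -1.04 (each ± 0.23, adjusted p = 0.0159, 0.00217 and 0.00773). Against a minimum fold of 1.2 the D3T calls of Gcgr and Cebpb were lost (adjusted p = 0.0591 and 0.0882). The orphan receptor Nr0b2 fell with TBD (log2 difference -1.71 ± 0.40, adjusted p = 0.0115). With OLT it fell (log2 difference -1.50, adjusted p = 0.0254), a call that did not outlast the removal of vehicle replicate 1 or 4, or OLT replicate 2 or 4 (-1.48 to -1.32) and was lost in 3 other alternatives. With D3T it differed by -0.92 (adjusted p = 0.133) and passed without D3T replicate 3 (-1.31, adjusted p = 0.0228). Pck1 itself had a mean of 12.21 against 12.20 in vehicle, in the D3T livers in which Gcgr and Cebpb were lower. A link between these genes and Pck1 was not tested.

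Of 10 tested genes known to respond to cAMP, glucocorticoids or insulin, 1 rose with each compound and 4, 6 and 4 fell, with medians of -0.52, -1.08 and -0.77. The TBD count of lower genes was 2 without vehicle replicate 2, and its count of higher genes was 2 without TBD replicate 4. The gene higher with OLT was Srebf1, and the count was 0 once vehicle replicate 2 or 3, or OLT replicate 1, 2 or 4, was removed. Igfbp1, an insulin-repressed binding protein for growth factors, fell with D3T (log2 difference -1.73 ± 0.41, adjusted p = 0.00952), with OLT (log2 difference -1.55 ± 0.41, 0.0249) and with TBD (log2 difference -1.68 ± 0.41, 0.0146). The OLT call of Igfbp1 rested on single arrays: it ended with vehicle replicate 2 or 4, or OLT replicate 2 or 3, removed (up to adjusted p = 0.0851), after centring (0.0661) and against a minimum fold of 1.2 (0.0743). Its TBD call was lost without vehicle replicate 2 (-1.51, adjusted p = 0.0537) and with only the 8 arrays compared (0.0599). Tyrosine aminotransferase Tat, raised by glucocorticoids, fell with OLT (log2 difference -1.54 ± 0.39, adjusted p = 0.0199). That call ended with vehicle replicate 2 or 4, or OLT replicate 2 or 3, removed (up to adjusted p = 0.0607), after centring (0.0617) and against a minimum fold of 1.2 (0.0601). With TBD Tat differed by -1.20 (adjusted p = 0.0603) and passed without TBD replicate 3 (-1.57, 0.0116) or TBD replicate 4 (-1.42, 0.0308), whereas it was -0.78 without TBD replicate 1. With D3T it differed by -0.82 (95% interval -1.66 to 0.03, adjusted p = 0.176) and passed with only the 8 arrays compared (adjusted p = 0.0172). The immediate early gene Egr1 fell, with log2 differences of -2.80, -2.46 and -2.07 (each ± 0.42, adjusted p = 0.000497, 0.00202 and 0.00493).

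The livers carried the hepatocyte markers, with all 9 measured markers above the array median on at least 1 array of each group. Their summed linear signal was 167816 to 177431 in vehicle. It was 184447 to 196776 with D3T, 156510 to 188014 with OLT and 169143 to 195651 with TBD. Such a sum follows the brightest markers most. Alb had a mean of 15.41 in vehicle and of 15.91, 15.67 and 15.70 with D3T, OLT and TBD. Of these 9 tested markers, 2, 0 and 0 rose and 2, 1 and 1 fell with D3T, OLT and TBD, with medians of 0.00, 0.03 and 0.02. With D3T Ttr rose by 0.56 (adjusted p = 0.00364), Alb rose by 0.50 (adjusted p = 0.00537, but 0.10 and adjusted p = 0.108 after quantile normalization) and Fgb fell (log2 difference -0.70, adjusted p = 0.0263), the last not without vehicle replicates 2 or 4 or D3T replicates 1 or 4. The D3T calls of Ttr, Alb and Fgb were lost against a minimum fold of 1.2 (limma treat, adjusted p = 0.0942, 0.169 and 0.173). Single arrays moved the OLT and TBD counts of hepatocyte markers between 0 and 2. Of 7 tested Kupffer cell and macrophage markers, 0 rose and 4 fell with each compound, and their summed signal was 2481 to 3540 in vehicle against 1393 to 1684 with D3T, 1309 to 1750 with OLT and 1452 to 1911 with TBD. Among them Aif1 fell, with log2 differences of -2.01, -2.18 and -2.21 and Clec4f with -1.02, -1.18 and -1.02, while Cd74 fell, with log2 differences of -1.05, -1.12 and -0.95 with calls that single arrays ended. Of 5 tested stellate cell markers 2, 1 and 2 fell, and of 4 endothelial markers 1, 0 and 1, with 0 higher in both lists. The summed signal of 9 measured stellate markers was 4043 to 5297 in vehicle, 4122 to 5397 with D3T, 4288 to 6841 with OLT and 4795 to 7027 with TBD. That of the 4 endothelial markers was 210 to 332 in vehicle, 113 to 268 with D3T, 169 to 768 with OLT and 108 to 264 with TBD. The list medians were -0.83, 0.03 and -0.66 for stellate and -0.10, -0.05 and -0.07 for endothelial markers. Col1a1 fell with all compounds and lay below the array median on all 4 D3T arrays, where its level is not resolved, and the differences were -2.16 with OLT and -2.84 with TBD. Col3a1 fell with -0.83 for D3T and -0.74 for TBD, and Lyve1 with -1.92 for D3T and -1.21 for TBD. The OLT call of Col1a1 and the TBD calls of Col3a1 and Lyve1 were lost when single arrays were left out. That of Col3a1 with D3T was lost against a minimum fold of 1.2 (limma treat, adjusted p = 0.0717). The single tested cholangiocyte marker and the 3 tested kidney and intestine markers had 0 calls in limma. The part of these cell markers in the differences of Pc, Pck1 and Fbp1 was not tested. On the first principal component vehicle replicates 2 and 4 scored -38.83 and -38.54, and vehicle replicates 1 and 3 scored -16.96 and -22.89. Array medians lay between 3.27 and 3.58. OLT replicate 1 and TBD replicate 4 stood apart on the second component (-21.67 and -21.79, with OLT replicate 4 next at -12.58). Without both, Pck1 differed with TBD (log2 difference -1.06, adjusted p = 0.000108) and with OLT (log2 difference -0.48, 0.018), and Pc with TBD (log2 difference -1.46, 0.00786) and with OLT (log2 difference -1.44, 0.0105).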

How the data were processed

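RNA of 16 rat livers was measured on 1-colour arrays with biotin-labelled RNA, 1 array per rat and 4 per group. The 8740 probe sets hold log2 values that the authors deposited after GCRMA, which is named in the submitters' processing notes without a version. GCRMA usually corrects background by probe sequence, normalizes by quantiles and summarises probes, and it compresses values near background. Scan dates were not used here, so batches could not be tested. Precision is limited by 4 arrays per group, and p-values measure the spread between animals and arrays together.

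The platform annotation gave 1 symbol to 7006 probe sets, several to 308 and none to 1426, and 6985 matched a GRCr8 gene table by Entrez ID, used for names. limma 3.58.1 in R 4.3.3 fitted group means over all 16 arrays (residual df 12, prior df 2.41). It was run on 5323 probe sets above the 40th percentile of the array on at least 4 arrays, two-sided, with Benjamini-Hochberg adjustment within each of 6 comparisons, and was checked on simulated data. Fold changes are powers of 2 of log2 differences. Figures used Python 3.11.15 and matplotlib 3.10.9.

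All probe sets of the 4 enzymes are named. From 15 gene lists, up to 3 genes per list with the largest called difference against vehicle were named, and Slc37a4, Slc2a2, Ppargc1a, Tat, Igfbp1, Pklr, Sds and Btd always; a further gene of that rule is not reported here. For each enzyme the 3 genes with the highest Pearson r over the arrays were named. The enzymes and lists were chosen with earlier results of these data known. Pfkfb1 is named by 2 rules. Alternatives covered filters, variance priors, scaling, array weights, the 8 arrays compared, averaged probe sets, a minimum fold of 1.2, single arrays left out, and the replicate number as a block. The labels do not say whether the numbers pair the rats. Of 24 same-numbered pairs, 8 had deviations correlated above 0.1, which cannot decide it with no figure for the other pairs.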

Additional observations from a re-analysis of the deposited data

Results flagged for a closer look

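At the brighter probe set shared by Psme3, Aoc3 and G6pc1, vehicle replicate 2 read 10.13, while the other vehicle arrays read 10.81 to 10.94. At the dimmer shared probe set, which lies below the 40th percentile of every array, TBD replicate 3 read 2.79 and the other TBD arrays 2.89 to 2.91. Both gaps passed Dixon's 95% limit for 4 samples. Chance flags about 1 in 20 groups, and 24 groups were examined.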

How the results depend on the processing

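Each of 24 results (4 probe sets in 6 comparisons), most of them not called in the main fit, was checked under each alternative. Of these 462 checks, 427 kept direction and side of the threshold. The calls of Pc with OLT and TBD and of Pck1 in TBD against vehicle and D3T against TBD were among the results that kept both throughout. The replicate block changed 0 of 24 calls, with Pck1 at -0.99 and Pc at -1.59 in TBD against vehicle. It ended the calls of Got1 with D3T (-1.82, adjusted p = 0.0523) and Igf1 with TBD (-0.90, adjusted p = 0.0509). Whether the numbers pair the rats is not known, and 5 of 16 arrays correlated best with an array of their own number, a count that does not decide it. The cause of the changes below was not tested.

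Pc with D3T was -1.06 with the treat test at 1.2-fold, -0.68 over the mean of its probe sets and -1.15 to -0.91 with 1 array left out. Fbp1 with D3T lost its call after centring (0.32) and with treat (0.37). Array weights, whose fit stopped before full convergence, gave calls for Fbp1 with OLT (0.26) and TBD (0.34) and for Pck1 with OLT (-0.61) and in D3T against OLT (0.52), and for the dimmer Pc probe set in D3T against OLT (1.09, adjusted p = 0.0232) and D3T against TBD (1.14, adjusted p = 0.0151). Pck1 with OLT also passed after quantile normalization (-0.41), and without OLT replicate 1 and TBD replicate 4 together (-0.48), and it ran from -0.48 to -0.30 with 1 array left out, passing without vehicle replicate 2 or OLT replicate 1. Pck1 with D3T turned sign after centring (-0.05), with array weights (-0.09) and with 1 array left out (-0.06 to 0.06). Pc in TBD against OLT turned with array weights (0.01) and with 1 array left out (-0.25 to 0.17), and the dimmer Pc probe set ran from -0.23 to 0.13. The shared probe set with 1 array left out ran from 0.34 to 1.03 with D3T, from 0.30 to 0.70 with TBD, from -0.42 to -0.01 in TBD against OLT, from -0.38 to 0.32 in D3T against OLT and from -0.20 to 0.49 in D3T against TBD, where it turned after centring (-0.03) and without both arrays (-0.12).

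Among other genes, signs turned for Gpd1 with OLT under array weights (-0.08), Sds with D3T over its probe sets (0.00), Slc37a4 with D3T (0.01 over its probe sets, -0.06 to 0.03 with 1 array left out), and Pklr with OLT (array weights -0.48, 1 array left out -0.17 to 0.39) and TBD (-0.24 to 1.01).

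Counts of called probe sets rose with array weights (2263, 1066, 1333, 171 and 152, against 981, 600, 693, 57 and 35 for D3T, OLT and TBD against vehicle, D3T against OLT and D3T against TBD) and were smaller with treat (432, 239, 307, 22 and 11). Centring gave 361 with OLT, 426 with TBD and 13 in D3T against TBD, and the 8-array fit gave 361 with TBD and 8 in D3T against TBD. D3T against OLT gave 92 after quantile normalization, 88 without both arrays and 30 to 51 with 1 array left out. D3T against TBD gave 19 to 34 and TBD against OLT 3 to 6, against 3, with 1 array left out.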

Other observations

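Gluconeogenic enzymes are known to be higher around the portal tract of the liver lobule, so genes of both zones were counted. Of 12 tested periportal genes, 2, 0 and 0 were higher and 1, 4 and 1 lower with D3T, OLT and TBD, with medians of -0.13, -0.41 and -0.12. The OLT lower count was 1 without OLT replicate 3 and 2 without vehicle replicates 2 or 4 or OLT replicate 2. The D3T higher count was 1 without vehicle replicates 1 or 3 or D3T replicates 1, 2 or 3, and the D3T lower count was 2 without vehicle replicate 4 or D3T replicate 3. The TBD lower count, of Igf1, was 0 without vehicle replicates 1, 2 or 3 or TBD replicates 2 or 4, and the TBD higher count was 1 without vehicle or TBD replicate 4. Of 7 tested pericentral genes, 1 was higher with each compound and 3, 3 and 4 lower, with medians of -0.97, -0.40 and -1.32. The OLT count of lower genes was 1 without vehicle replicate 2 or OLT replicates 2 or 3.

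The pericentral gene that rose was the retinal dehydrogenase Aldh1a1, by 1.70, 1.71 and 1.58 (each ± 0.32 SE, n = 4 per group, limma adjusted p = 0.00195, 0.00324 and 0.00448), and it held under every alternative run. The pericentral P450 Cyp1a2 fell with D3T (-2.20 ± 0.28, adjusted p = 0.000155) and TBD (-1.76 ± 0.28, adjusted p = 0.000969). With OLT its brightest probe set differed by 0.77 (95% interval 0.16 to 1.37, adjusted p = 0.0997), and its 3 probe sets averaged passed (1.13, adjusted p = 0.0246). Oat, which fell with all compounds, is pericentral as well, while the periportal Sds passed with OLT. Periportal Igf1 fell with D3T (log2 difference -1.08 ± 0.27, limma adjusted p = 0.0127) and with TBD (log2 difference -0.90, adjusted p = 0.042). Its D3T call was lost against a minimum fold of 1.2 (limma treat, adjusted p = 0.0551). The TBD call of Igf1 was lost in 13 of 20 alternatives, with -0.47 over its averaged probe sets (adjusted p = 0.225) and -0.62 without TBD replicate 4 (adjusted p = 0.0854). Histidine ammonia-lyase Hal fell with OLT (log2 difference -0.87, adjusted p = 0.0295). That call was lost in 8 of 20 alternatives, among them the removal of vehicle replicate 2 or 4 or OLT replicate 2 or 3, and Hal was -0.37 over its averaged probe sets (adjusted p = 0.0929).

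Srebf1, an insulin-responsive regulator of lipid synthesis, rose with D3T from 3.92 ± 0.54 to 6.33 ± 0.63 (SD, n = 4; limma log2 difference 2.41 ± 0.41 SE, adjusted p = 0.00112) and with TBD to 6.86 ± 0.41 (2.93 ± 0.41, adjusted p = 0.000421). In the same D3T livers Pck1 read 12.04 to 12.37 against 11.99 to 12.31 in vehicle. A link between Srebf1 and Pck1 was not tested. The OLT call of Srebf1 (1.37, adjusted p = 0.0459) ended when vehicle replicate 2 or 3, or OLT replicate 1, 2 or 4, was left out (1.07 to 1.41) and with 6 other alternatives. Vehicle Srebf1 read 3.36 to 4.45, near the array medians of 3.27 to 3.58, so the sizes of its rises are uncertain.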
